A study of Homo sapiens with 2 samples.

Results

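The genes described here are 48 developmental transcription factors outside the HOX clusters: 7 T-box genes, 8 paired-box genes, 8 forkhead genes, 6 SOX genes, 4 GATA genes and 15 others, most of them homeobox genes. They were taken by symbol from 19970 protein-coding genes of the annotation on chromosomes 1 to 22 and X, and all 48 were found. The data are a map of H4R3me2a, histone H4 asymmetrically dimethylated on arginine 3 (both methyl groups on 1 nitrogen), in HCT116, an established human colorectal carcinoma line, from cells that received no drug. There was 1 library of chromatin immunoprecipitated with an antibody against H4R3me2a and 1 library of input DNA, and peaks were called for the former against the latter. With no replicates, no difference below has a replicate check and no p-value is given. Intervals of shares are exact (Clopper-Pearson, 95%), and those of medians come from the ranked values (95%). They cover counting error only.

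H4R3me2a is placed mainly by the arginine methyltransferase PRMT1 and is known as a mark found with active transcription. Developmental transcription factors set up organs and cell lineages in the embryo, and each is typically active only in the tissues it helps to form. Their start sites usually lie in sequence rich in CpG dinucleotides, and several of the genes are short, with 1 or few exons. Transcript levels were not measured in this series, so a relation of the peaks to the activity of these genes was not tested.

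The sequence under single summits differed widely, from many CpG dinucleotides to none, and the ranges of the families overlapped. As examples of this spread, 1 summit of each family is printed with the 50 bases on either side, 5' to 3' on the strand of the gene, with each CpG in capitals. They come from the GRCh38 reference, and the peak was the one with the highest fold in its family within 1 kb of a transcription start site (TSS), or the highest fold of all for the GATA genes, among windows that met no untranslated region of any annotated transcript. That condition left out higher peaks of SOX10, GATA2, MSX2 and LHX3, and LHX2 was taken from a tie with NKX2-5. The stretches are chr22:19759068-19759168 (plus strand) for TBX1, chr2:113235744-113235844 (minus strand) for PAX8, chr16:86567378-86567478 (plus strand) for FOXC2, chr3:181712380-181712480 (plus strand) for SOX2, chr20:62466719-62466819 (minus strand) for GATA5 and chr9:124016287-124016387 (plus strand) for LHX2.
TBX1: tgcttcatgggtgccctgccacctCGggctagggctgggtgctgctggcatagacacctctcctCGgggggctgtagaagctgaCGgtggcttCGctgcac
PAX8: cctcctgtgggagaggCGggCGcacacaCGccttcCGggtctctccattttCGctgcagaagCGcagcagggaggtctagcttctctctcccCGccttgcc
FOXC2: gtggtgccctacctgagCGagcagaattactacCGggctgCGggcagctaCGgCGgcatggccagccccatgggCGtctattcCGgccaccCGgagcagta
SOX2: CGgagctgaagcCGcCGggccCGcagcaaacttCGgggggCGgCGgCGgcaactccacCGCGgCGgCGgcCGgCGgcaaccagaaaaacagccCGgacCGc
GATA5: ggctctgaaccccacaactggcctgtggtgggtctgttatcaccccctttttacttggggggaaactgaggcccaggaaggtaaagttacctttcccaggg
LHX2: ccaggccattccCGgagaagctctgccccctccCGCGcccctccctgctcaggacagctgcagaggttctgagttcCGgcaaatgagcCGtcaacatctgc
The stretch of SOX2, inside its coding sequence, held 16 CpGs at 76.2% GC. That of GATA5, in intron 3, held none at 55.4% GC. Those of FOXC2, PAX8, LHX2 and TBX1 held 8, 7, 5 and 4.

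Of the 48 genes, 22 (45.8%, interval 31.4 to 60.8%) had at least 1 peak, with the summit in the gene body or within 1 kb of any annotated TSS of the gene. Among all protein-coding genes 47.2% did, so the count is close to the background. The 22 genes held 57 peaks. Within 500 bp of a TSS, 6 genes (12.5%, 4.73 to 25.2%) had a peak, against 23.7% of all genes. Within 1 kb, 12 genes did (25%, 13.6 to 39.6%), against 31.6%. Peaks farther than 500 bp from every TSS of their gene were found in 20 genes (41.7%, 27.6 to 56.8%), against 38.7%. The interval for the 500 bp window still includes 23.7%.

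The 57 peaks were spread unevenly over the genes. TBX1 held 8, PAX2 and SOX10 6 each, and PAX5 5, so that 4 genes carried 25 of the 57 peaks (43.9%). GATA5, LHX2 and LHX3 held 4 each, PAX8 held 3, and PAX7, SOX17 and GATA2 held 2 each. A single peak was found in 11 genes: TBX2, TBX3, PAX6, FOXC2, SOX2, GATA4, NKX2-5, DLX1, MSX1, MSX2 and GBX2.

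**Figure D1:**
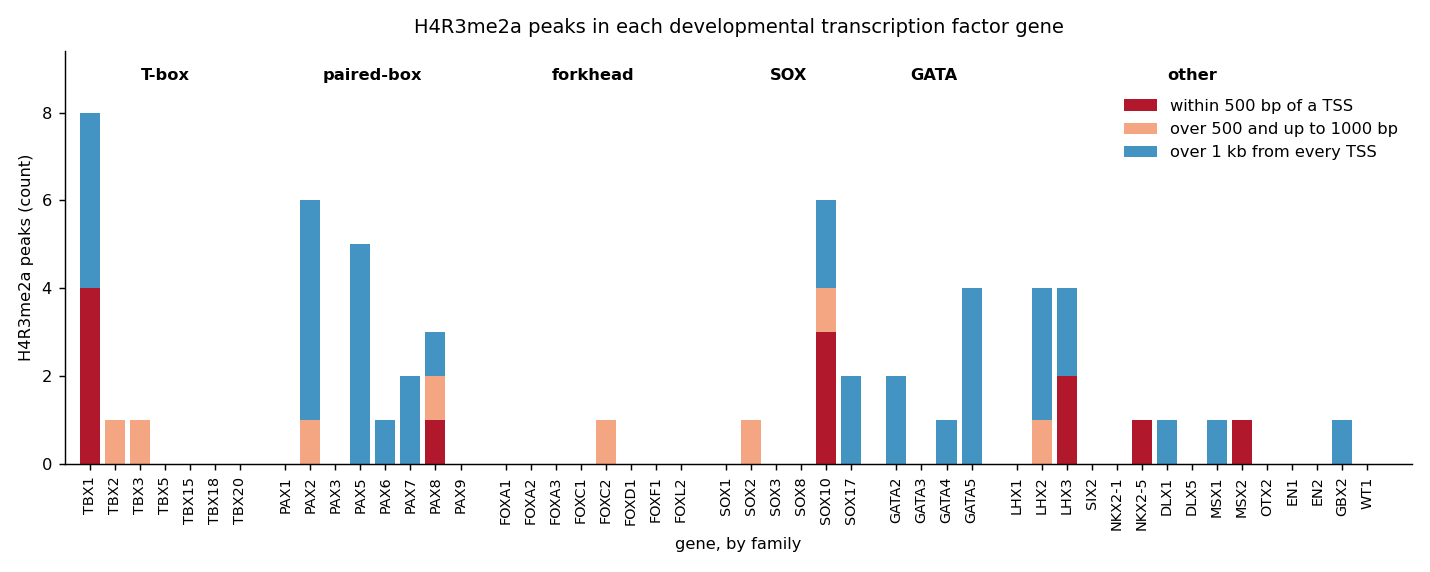
Number of H4R3me2a peaks (vertical axis, count) in each of the 48 genes, grouped by family. Colours give the distance of the summit from the nearest TSS of the gene. TBX1 has the highest bar with 8 peaks, 26 genes have no bar, and 1 of the 8 forkhead genes has a peak.

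The families differed in count, but each is small. Peaks were found in 5 of 8 paired-box genes (62.5%, 24.5 to 91.5%), 3 of 4 GATA genes (75%, 19.4 to 99.4%), 3 of 6 SOX genes (50%, 11.8 to 88.2%) and 3 of 7 T-box genes (42.9%, 9.90 to 81.6%). The other genes had 7 of 15 (46.7%, 21.3 to 73.4%). The forkhead genes were lowest with 1 of 8 (12.5%, 0.316 to 52.7%). All 6 intervals include the background of 47.2%. Gene length differed as well: the median was 78.7 kb for the paired-box genes, 51.7 kb for the T-box genes, 21.8 kb for the GATA genes, 5.48 kb for the others, 4.22 kb for the forkhead genes and 3.76 kb for the SOX genes. The part of length in these counts was not tested.

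The T-box genes code for factors that bind DNA through the T-box domain. TBX1, which patterns the pharyngeal arches and lies in the region lost in 22q11 deletion syndrome, held 8 of the 10 T-box peaks. Its peak of highest fold (chromosome 22, 19758758 to 19759311) had a fold enrichment of 6.52 from 13 fragments over a background of 1.15, with the summit 336 bp downstream of a TSS. Fold is the authors' enrichment over the local background, taken here as (pileup + 1) / (background + 1), where the pileup is the fragments at the summit. The background in fragments was recovered from the pileup and the fold. That peak was 554 bp wide, the widest of the 57. The other near peaks of TBX1 had folds of 4.56 (137 bp downstream of a TSS), 3.94 (457 bp downstream) and 2.95 (416 bp upstream). Its 4 remaining peaks lay 1452 to 17985 bp from every TSS, with folds of 3.35 to 4.91. The peak of highest fold lay 2415 bp inside the gene and upstream of the TSS of the canonical transcript, so the TSS beside it is an alternative one.

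TBX2 and TBX3, related genes with roles in limb, heart and mammary development, had 1 peak each, in both cases a little beyond 500 bp. That of TBX2 (chromosome 17, 61400852 to 61401124) had a fold of 3.83 from 13 fragments over 2.66, with the summit 560 bp downstream of a TSS in intron 1. That of TBX3 (chromosome 12, 114682753 to 114682967) had a fold of 4.56 from 8 fragments over 0.972, 523 bp downstream of a TSS in coding sequence. Both summits also lay in antisense genes, TBX2-AS1 and TBX3-AS1, and a peak of chromatin cannot be assigned to either strand. TBX5 and TBX20, which act in heart development, and TBX15 and TBX18 had no peak.

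Paired-box genes held the largest number of peaks of the families here, 17, and 16 of these lay farther than 500 bp from every TSS. Most peaks of all protein-coding genes, 19111 of 25704, lay that far as well. The paired-box genes are also the longest by median (78.7 kb), with 2.61 peaks per 100 kb against 2.04 for all protein-coding genes. PAX2, a factor of kidney and eye development, had 6. The strongest by fold (chromosome 10, 100744065 to 100744329) had a fold of 5.63 from 16 fragments over 2.02, and its neighbour (100744502 to 100744762) a fold of 5.59 from 16 fragments over 2.04. These lay 1390 and 965 bp upstream of the canonical TSS, inside longer annotated transcripts. Another, 3585 bp upstream of that TSS, had a fold of 4.59. The remaining PAX2 peaks lay 37904 to 79569 bp from every TSS in intron 5, in intron 8 and in the 3' UTR, with folds of 3.93, 2.94 and 4.28.

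PAX5, which commits cells to the B lineage, is the longest gene of the set at 201 kb. Its 5 peaks lay in introns 5 to 8, between 64904 and 169666 bp from the 5' end, and the nearest was 2775 bp from any TSS. The highest had a fold of 5.69 (chromosome 9, 36898781 to 36899003, 12 fragments over 1.28) and the lowest 3.48. No summit lay within 50 kb of the 5' end of PAX5 on either side.

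PAX8, a factor of thyroid and kidney development, was the only paired-box gene with a near peak. That peak (chromosome 2, 113235709 to 113236051) had a fold of 5.71 from 10 fragments over 0.927, 351 bp upstream of an internal TSS. Its summit lay 43127 bp from the 5' end, in intron 8 and within PAX8-AS1, a non-coding gene with a TSS of its own in the same 1 kb. PAX8 had another peak 830 bp downstream of a TSS (fold 4.62) and one in its 3' UTR (fold 3.61). PAX7, a factor of muscle stem cells, had peaks only at its far end, with folds of 4.32 in intron 7 and 3.94 in the 3' UTR, 86399 and 114354 bp from the 5' end. PAX6, which directs eye development, had 66 annotated TSSs but 1 peak, with a fold of 3.28 from 9 fragments over 2.05, 1087 bp from the nearest. That summit also lay in the non-coding gene PAUPAR and in another protein-coding gene model, ENSG00000285283, which has a TSS within 1 kb of it. PAX1, PAX3 and PAX9 had none.

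SOX genes code for factors with an HMG-box domain. SOX10, a factor of the neural crest and its glial and pigment cells, held 6 of the 9 SOX peaks and 3 of the near ones. The near summits lay 5 bp upstream (fold 3.64), 229 bp downstream (fold 3.51) and 443 bp upstream (fold 3.28) of a TSS. Its highest fold was 4.88 (chromosome 22, 37979573 to 37979711, 14 fragments over 2.07), in intron 2. The 6 summits all lay inside POLR2F as well, an RNA polymerase subunit gene whose annotated extent covers SOX10, and 1 of them was within 1 kb of a TSS of POLR2F. Without these 6 peaks and the PAX6 peak, which also lay inside another protein-coding gene, 50 member peaks in 20 genes remain, and 5 genes keep a near peak. No share of all genes under the same filter is given, so these counts cannot be set against the background.

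SOX2, a factor of stem cells and of the foregut, had 1 peak (chromosome 3, 181712277 to 181712557), with its summit in coding sequence 505 bp downstream of the only annotated TSS. Its fold of 3.53 came from 5 fragments, the lowest pileup in the list, over the lowest recovered background of 0.697, and the summit also lay in the non-coding gene SOX2-OT. SOX17, a factor of endoderm, had peaks in intron 1 and in coding sequence, 1012 and 1861 bp from its TSS, with folds of 4.26 and 4.34. SOX1, SOX3, the one member on chromosome X, and SOX8 had none.

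GATA factors bind the motif they are named for through zinc fingers, and GATA4 and GATA5 act in endoderm and heart, GATA2 and GATA3 in blood cells and elsewhere. None of the 7 GATA peaks lay within 1 kb of a TSS. Over all peaks of protein-coding genes 25.6% lay within 500 bp, and 7 peaks are few for a comparison. GATA5 had 4, at 2942, 5093, 9226 and 11074 bp from its TSS, with folds of 4.38, 3.87, 4.47 and 4.14. GATA2 had the highest fold of the family, 4.55 (chromosome 3, 128480500 to 128480657, 11 fragments over 1.64), in the 3' UTR, and a peak of fold 3.82 in intron 2. GATA4 had 1 peak of fold 3.35 in coding sequence, 4372 bp from a TSS, in sequence of 81.6% GC. GATA3 had no peak in the gene, and the nearest summit lay 4.65 kb away.

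Among the others, the LIM homeobox genes LHX2 and LHX3, which act in forebrain and in pituitary development, had 4 peaks each. LHX3 had the highest fold of this group, 5.85 (chromosome 9, 136199866 to 136200049, 15 fragments over 1.74), in intron 2 and 1763 bp from a TSS. Its near peaks had folds of 3.93 (194 bp downstream of a TSS) and 2.95 (332 bp upstream), and the fourth had a fold of 4.48. LHX2 had folds of 3.37 to 5.13, the highest (chromosome 9, 124013843 to 124013999) from 12 fragments over 1.54 in intron 1. LHX1 had none, and the nearest summit lay 4.84 kb away in AATF.

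MSX2, a homeobox factor of skull and limb development, had a peak of fold 5.54 (chromosome 5, 174724999 to 174725175, 11 fragments over 1.17) 482 bp downstream of a TSS. NKX2-5, a factor of the heart, had a peak of fold 3.81 (chromosome 5, 173234749 to 173234887, 8 fragments over 1.36) in coding sequence, 343 bp downstream of a TSS. Single peaks of GBX2 (fold 4.67), MSX1 (4.48) and DLX1 (3.59) lay 1053, 1265 and 1148 bp from the nearest TSS. SIX2, NKX2-1, DLX5, OTX2, EN1, EN2 and WT1 had none.

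Forkhead genes had the fewest peaks by count. Per length they had 2.11 per 100 kb, from a single peak, against 2.04 for all protein-coding genes. FOXC2, a factor of lymphatic vessels and mesenchyme, had the only one (chromosome 16, 86567370 to 86567498), in coding sequence 599 bp downstream of its TSS. Its fold was 3.90, from 11 fragments over 2.07, and the summit also lay in FOXC2-AS1. FOXA1, FOXA2 and FOXA3, the pioneer factors of endoderm and gut, had no peak, and neither had FOXC1, FOXD1, FOXF1 and FOXL2. The share among the forkhead genes that are not members was 17 of 44 (38.6%, 24.4 to 54.5%). Of their 51 peaks, FOXK2 held 15 over 125 kb and FOXK1 held 8 over 89.1 kb.

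By position, 12 of the 57 peaks (21.1%, 11.4 to 33.9%) lay within 500 bp of a TSS, 8 lay over 500 and up to 1000 bp away and 37 (64.9%, 51.1 to 77.1%) lay farther. Over all peaks assigned to protein-coding genes, 6593 of 25704 (25.6%) lay within 500 bp. There the nearest TSS of any gene holding the peak was used, while for member peaks only the member's own TSSs counted. The near peaks came from 6 genes: TBX1 with 4, SOX10 with 3, LHX3 with 2, and PAX8, NKX2-5 and MSX2 with 1 each. The boundary of 500 bp had members close to it on both sides. MSX2 at 482 bp was just inside, and SOX2 at 505 bp and TBX3 at 523 bp were just outside. Of the 12 near summits, 7 lay downstream of the nearest TSS and 5 upstream. With the canonical TSS of each gene alone, 2 of the 57 peaks (3.51%) lay within 500 bp, those of SOX10 at 142 bp and NKX2-5 at 343 bp, against 9.14% of all gene peaks.

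**Figure D2:**
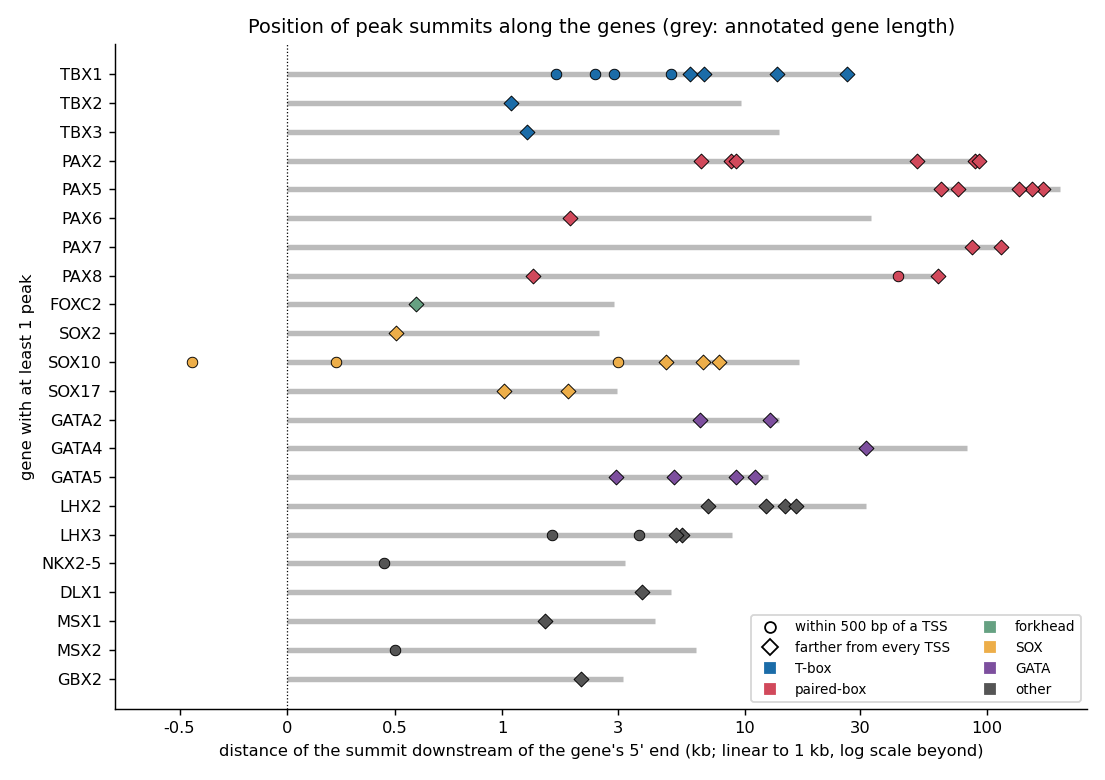
Summits of the 57 peaks along the 22 genes that had one, as distance downstream of the gene's 5' end (kb, linear up to 1 kb and on a log scale beyond). Circles lie within 500 bp of any annotated TSS and diamonds farther, grey bars give the gene length, and only 1 summit, of SOX10, lies upstream of the 5' end.

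On the canonical transcripts, 31 summits (54.4%) lay in introns, 8 in coding sequence, 5 in 3' UTRs and 1 in a 5' UTR. Another 11 lay in the gene outside the canonical transcript, among them 5 of the 10 T-box summits, all in TBX1. Only 1 summit lay upstream of its gene, where the assignment reaches 1 kb at most but takes in the whole gene body. No shares over all gene peaks are given beside these counts, so they describe placement only. The summits in coding sequence belonged to TBX3, FOXC2, SOX2, SOX17, GATA4, GATA5, NKX2-5 and GBX2, 1 each.

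The peaks of these genes were of ordinary height. Their median fold was 4.14 (interval of the median 3.87 to 4.48), with quartiles of 3.61 and 4.59 and a range of 2.94 (PAX2) to 6.52 (TBX1). All peaks of protein-coding genes had a median of 4.18. The median pileup was 10 fragments in both sets, over a median background of 1.68 in the members and 1.54 in all gene peaks. At 1 of the 57 peaks (1.75%) the fold was 6 or higher, against 3.78% of all gene peaks. The −log10 q was 5 or higher at 4 peaks (7.02%), of TBX1, PAX2 (which had 2) and LHX3, against 4.24%. Within 500 bp of a TSS the median fold was 3.87 (3.28 to 5.54, 12 peaks), and farther away it was 4.28 (3.87 to 4.48, 45 peaks), with overlapping intervals. Family medians ran from 3.64 in the SOX genes and 3.94 in the T-box genes to 4.14 in GATA, 4.32 in paired-box and 4.45 in the other genes. The SOX peaks also had a median background of 2.05, against 1.36 in the other genes, and since fold depends on the background these medians do not rank the mark.

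**Figure D3:**
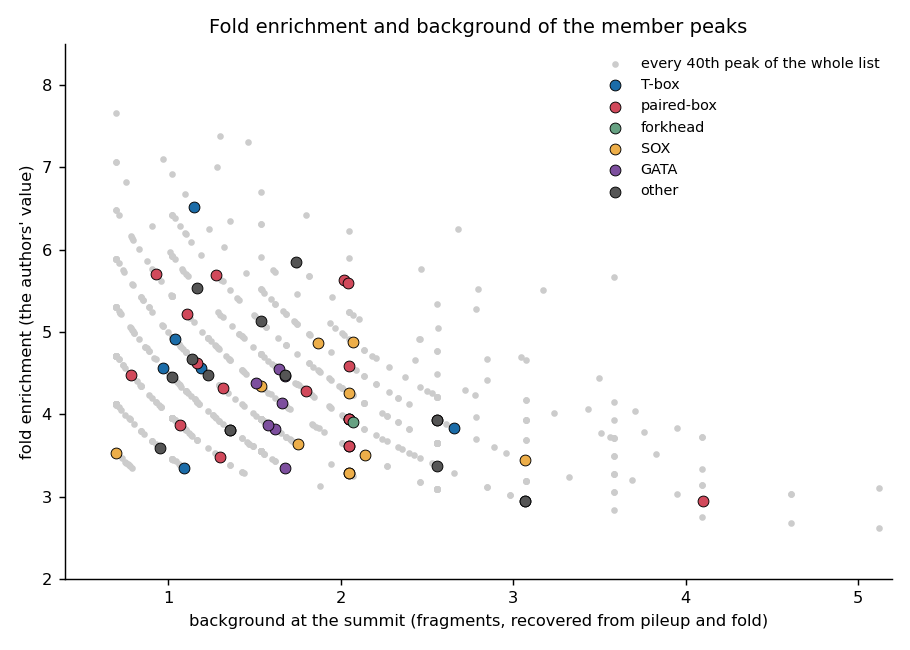
Fold enrichment (the authors' value) against the background at the summit in fragments, for the 57 member peaks coloured by family and for every 40th peak of the whole list in grey, of which 4 beyond the axes are not drawn. The member points lie within the grey cloud, with TBX1 highest at 6.52, and folds are lower where the background is higher.

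The summits lay in sequence richer in CpG than most peaks. The 100 bp on either side had a median GC content of 66.7% and a median of 9 CpGs in the member peaks, against 61.2% and 5 in all gene peaks. Near a TSS the median was 14 CpGs in the members and 9 in all gene peaks, and farther away it was 9 and 5. The range within the set was wide. GATA4 had 31 CpGs, SOX2 had 29, and LHX2 and PAX7 had a summit with 28 each, while the other PAX7 summit had 0 and 1 summit of PAX2 and 1 of PAX8 had 1 each. The 13 peaks of the other genes had a median of 18 CpGs, the T-box peaks 9.5, and the paired-box, SOX and GATA peaks 6 each. The letters GGGCGG, known as a GC box, were found on either strand in 17 of the 57 windows (29.8%), against 19.9% of all gene peaks. Near a TSS they were found in 5 of 12 (41.7%), against 32.3%. No interval is given for these shares, which rest on few windows, and a difference in GGGCGG was not tested.

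The genes themselves start in CpG-rich sequence. The ratio of CpGs found to CpGs expected from base content, over the 500 bp to each side of the 5' end, had a median of 0.789 in the 48 genes and 0.688 in all protein-coding genes, and 35 of the 48 fell in the upper 5 of 10 equal groups of genes ranked by this ratio. In these upper groups 55.3% of all protein-coding genes had a peak and 27.9% had one within 500 bp of a TSS. Of the 35 members there, 15 (42.9%, 26.3 to 60.6%) had a peak and 2 (5.71%, 0.7 to 19.2%) had a near one, TBX1 and MSX2. Of the 13 members in the lower 5 groups, 7 (53.8%, 25.1 to 80.8%) had a peak and 4 (30.8%, 9.09 to 61.4%) a near one, against 39.1% and 19.4% of all genes. Gene length was not matched in this split. Its median in the upper groups was 6.51 kb in the members and 36.1 kb in all genes. In the lower groups it was 31.6 kb and 19.8 kb. The part of length in these shares was not tested. Weighted to the CpG groups of the members, the share of all genes with a near peak was 26.9%, above the interval of 4.73 to 25.2% for the 48 members. The same weighting gave 53.2% for any peak, inside the interval of the members. Weighted by the length of sequence within 500 bp of a TSS, which was 2.49 kb in the median member and 2.76 kb in the median gene, the share of all genes with a near peak was 21.0%, inside the members' interval.

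**Figure D4:**
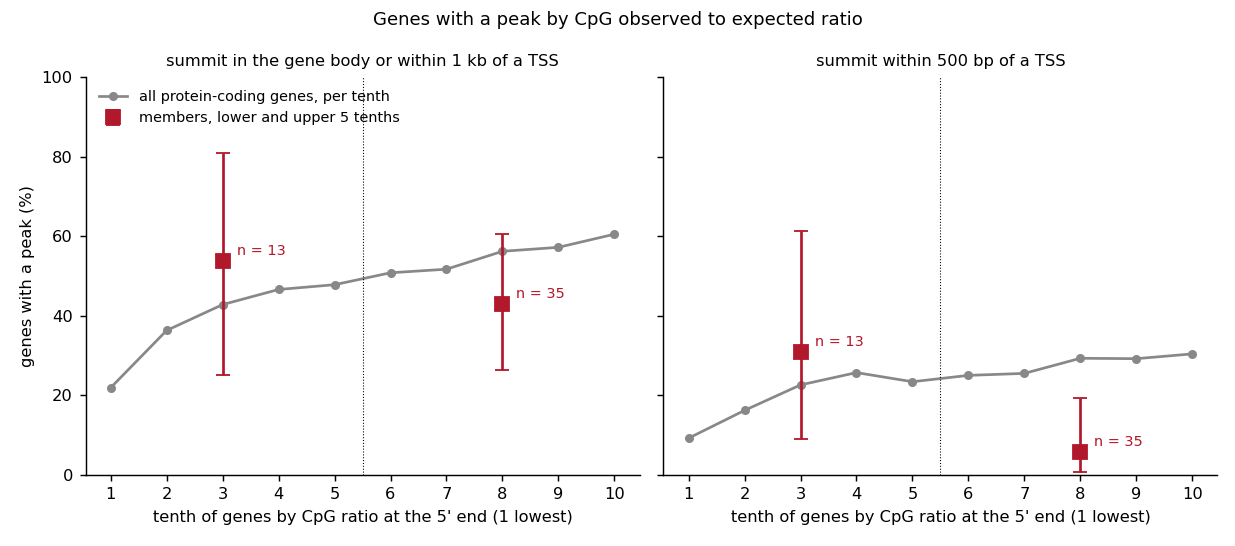
Share of genes with a peak (%) in 10 groups of equal size ranked by the CpG ratio at the 5' end, for all protein-coding genes (grey) and for the members in the lower and upper 5 groups (red squares, 95% exact intervals), with peaks anywhere in the gene on the left and peaks within 500 bp of a TSS on the right. In the upper groups 5.71% of 35 members had a near peak, against 27.9% of all genes. The median gene length there was 6.51 kb in the members and 36.1 kb in all genes.

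Per length, the set held more peaks than genes in general. No such value is given for the related genes or the HOX genes, so the difference is not shown to be particular to the set. Over the gene bodies and the 1 kb around TSSs, 1405 kb in all, there were 4.06 peaks per 100 kb (exact Poisson interval 3.07 to 5.26), against 2.04 for all protein-coding genes. That interval takes the peaks as independent, but 4 genes carried 25 of the 57, so it is likely too narrow. The median gene length was 9.25 kb in the members and 27.5 kb in all genes, and the GC content of the gene windows was 48.6% and 42.1%. The part of GC content and length in this difference was not tested. Without TBX1 the value was 3.56. The SOX genes had 22.5 peaks per 100 kb, with 6 of their 9 in SOX10, and the paired-box genes, with long introns, 2.61. The forkhead genes had 2.11, the T-box genes 2.88, the GATA genes 4.89 and the other genes 7.40.

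A total of 26 members had no peak, which means that no region passed the authors' threshold there and not that the mark is absent. Their windows had a GC content of 44.9%, against 51.7% for the members with a peak. For 8 of the 26 (30.8%) a summit lay within 5 kb of the gene, against 10.4% of the 10547 protein-coding genes without a peak. These were SOX8 (1.5 kb), FOXA1 (2.43 kb), DLX5 (3.01 kb), FOXL2 (3.40 kb), TBX15 (3.79 kb), FOXF1 (3.95 kb), GATA3 (4.65 kb) and LHX1 (4.84 kb). At 9 members (34.6%) the nearest summit was more than 100 kb away, against 45.6% of the protein-coding genes without a peak. The distances ran from 178 kb at FOXD1 and 197 kb at PAX1 to 565 kb at TBX18, 575 kb at OTX2 and 5065 kb at SOX3. TBX5, TBX20, PAX3 and FOXA2 were the others, at 274, 296, 372 and 501 kb. In between were FOXC1, WT1, FOXA3, NKX2-1, EN2, SOX1, SIX2, EN1 and PAX9, at 5.80 to 76.1 kb. The set without a peak thus holds both genes in stretches free of peaks and genes with a peak close by.

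The surroundings of the genes were described by the summits within 50 kb on either side of the 5' end, with the gene's own peaks left out. The median was 2 summits for the members with a peak and 1 for those without, against 2 and 0 for protein-coding genes with and without a peak. Genes with 4 or more peaks of their own differed widely: GATA5 had 20 other summits in this range, TBX1 19, LHX3 15 and SOX10 12, while PAX2 had 3, LHX2 had 1 and PAX5 had 0. SOX8 with 13 and FOXA3 with 11 had none in the gene.

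Related genes were counted in the same way. Of 102 other protein-coding genes of the same families, taken by symbol, 44 (43.1%, 33.4 to 53.3%) had a peak and 17 (16.7%) a near one. Among all protein-coding genes these shares were 47.2% and 23.7%, and among the 48 members 45.8% and 12.5%. By family, a peak was found in 3 of 10 T-box genes, 17 of 44 forkhead genes and 7 of 13 SOX genes. Both remaining GATA genes and 15 of 32 of the other homeobox genes had a peak, while PAX4, the remaining paired-box gene, had none. SOX13 and SOX9 had 4 peaks each, LMX1B had 8 and LHX4 had 7. The 39 HOX genes had 21 with a peak (53.8%, 37.2 to 69.9%) and 7 with a near one (17.9%). For any peak, the intervals of the related genes and of the HOX genes include the 47.2% of all genes. The 102 related genes held 110 peaks at a median gene length of 6.77 kb, and the HOX genes 46 at 4.22 kb. The 48 members held 57 at 9.25 kb.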

How the data were processed

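One H4R3me2a library was compared with 1 input library, both from HCT116 cells, as paired-end reads of 150 bp per the labels. The submitters' processing notes name Bowtie2, MACS2, deepTools and GRCh38. Versions, parameters and read totals were not given in the sources used here. Depth is therefore described by the pileup. The authors' deposited table gives for each peak the signal at the summit as a fragment pileup, the fold (a ratio over the local background), −log10 of a p-value and of a q-value, and the width. These are the caller's own values for single libraries. The background was recovered as (pileup + 1) / fold − 1. Of 33353 peaks, the 33349 on chromosomes 1 to 22 and X were used.

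Summits were assigned to genes of GENCODE release 44 with Python 3.11.15, pandas 2.3.3, scipy 1.17.1 and pysam 0.24.0. The assignment was checked on simulated peaks of genes that did not overlap and had a single TSS each. Choosing among several TSSs was not part of that check. A TSS is that of any transcript of the gene unless the canonical one is named. All members are named. Positions and pileups are given for members with a near peak, with the highest fold of a family or with most peaks, and for some others chosen after their values were seen. Of the related genes, up to 2 per family with most peaks are named. The members and lists were chosen with earlier results of these data known. The lower and upper groups by CpG, the weighting by length, the neighbourhood of 50 kb and the distances of genes without a peak were added after the data were seen.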

Additional observations from a re-analysis of the deposited data

How the results depend on the processing

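Of 106 values recomputed under the alternatives, 74 stayed close to the value above. For counts this means within 1.5 times the value, and for the median fold and the peaks per 100 kb within the interval. Some values could hardly move, such as the genes with any peak when only the TSSs were changed or close peaks were merged. With the canonical TSS alone, the genes with a peak within 500 bp fell from 6 to 2, those within 1 kb from 12 to 7, and the near peaks from 12 to 2. All genes fell from 23.7% to 11.8%. Where the −log10 q had to be at least 5, 3 genes kept a peak, 1 within 500 bp, 2 within 1 kb and 2 farther, with 4 peaks in all, 1 of them near, and a median fold of 5.74. T-box, paired-box and other genes then had 1 gene each, and forkhead, SOX and GATA genes 0. The share was 6.25%, against 5.25% of all genes. With a fold of 4 or more, 29 peaks were left, 4 of them near, in 3 genes within 500 bp and 5 within 1 kb, and 0 forkhead genes. Near peaks were then found in 6.25% of the members and 17.4% of all genes, and any peak in 31.2% and 38.5%. The upper 50% of peaks by −log10 q gave 28 peaks, 5 near, 7 genes within 1 kb, 3 paired-box genes and 0 forkhead genes. Fewer peaks enter by construction in these 3 settings. A flank of 5 kb gave 92 peaks and 4 forkhead genes, and 30 members with a peak (62.5%, against 52.7% of all genes). That count of members is among those called close, though the share moved from below that of all genes (45.8% and 47.2%) to above it. A limit of 250 bp gave 3 genes and 4 peaks near a TSS, and 1 kb gave 12 genes and 20 peaks. By overlap of the interval, 9 genes (18.8%) had a near peak, against 26.4% of all genes. The share of near genes among members was below that of all genes in each of the 10 settings tried, by least at a −log10 q of at least 5 (2.08% and 2.12%). These settings reuse the same peak list from 1 library and are not independent checks. The flank of 5 kb cannot change which summits lie within 500 bp.

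No paired analysis was possible because there was 1 library of each kind. A peak here rests on 5 to 16 fragments, which limits the precision of each value.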
